A study of Rattus norvegicus with 10 samples.

Results

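The genes described here are the ligands, receptors, secreted antagonists and first intracellular components of Wnt signalling in the fetal rat heart. They were chosen by symbol, as every listed gene whose name begins with Wnt, Fzd, Sfrp, Dkk or Rspo together with Lrp5, Lrp6, Frzb, Wif1, Axin1, Axin2, Lef1, Tcf7, Tcf7l1, Tcf7l2 and Ctnnb1. Of 18025 genes listed, 51 carried such a symbol, and 38 of these averaged 0.1 FPKM or more in the 10 libraries together (FPKM are fragments scaled by gene length and by library size). The other 13 fell below this level and were not tested. Across the whole table, 14542 genes reached it.

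RNA was sequenced from heart tissue of wild-type Sprague-Dawley fetuses at embryonic day 19.5 (E19.5), with 5 libraries in each group. In the hyperglycemia (HG) group, 3-month-old dams had been made diabetic by repeated intraperitoneal injection of streptozotocin (STZ), which destroys pancreatic beta cells, in citric acid buffer. In the control (CON) group, dams had received the buffer alone. Whether the injections came before or after mating is told differently by the sources. The sires of both groups were normoglycemic. The sources used here do not say how many dams or litters the 10 libraries represent, and they mention pooled RNA although each library has its own values. The p-values therefore measure the spread between these libraries, which may be technical in part.

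Wnt proteins are secreted lipid-modified ligands that bind Frizzled receptors together with Lrp5 or Lrp6, or with other co-receptors. In the canonical branch, binding halts the destruction of beta-catenin by the Axin and Apc complex, and beta-catenin then enters the nucleus and acts with Tcf and Lef factors. In the heart, Wnt signalling is known for its stage-dependent roles in forming the myocardium, the outflow tract, the valves and the epicardium.

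Depth was even across the libraries. The FPKM values could be traced back to whole reads, which gave 17647158 to 18247127 gene reads in the CON libraries and 16680028 to 19118401 in the HG libraries. Of the genes listed, 16041 to 16313 were above 0 in a library. Among 12 lists of cell type markers, the cardiomyocyte list had the highest summed level in every library. Its sum was 28322 to 29917 FPKM in CON and 24185 to 28166 FPKM in HG over 10 genes. By the limma test given below (adjusted p under 0.05), 7 of them were lower and 1 higher in HG. Over all genes tested, 11.8% were lower and 28.4% higher. Liver markers summed to 3.17 to 85.1 FPKM in CON and 1.53 to 2.80 FPKM in HG, and the highest value belonged to CON replicate 3. The labelled tissue held the markers of heart muscle, fibroblasts and endothelium alike.

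Most of the Wnt genes that passed a test were higher in HG. Tested with limma on log2(FPKM + 0.1), 16 of those 38 genes (42.1%) were higher in HG and 1 (2.63%) was lower at a Benjamini-Hochberg adjusted p under 0.05, and 21 did not pass. Over all 14542 genes tested, 28.4% were higher and 11.8% were lower, 40.1% in all. The median log2 fold change was 0.20 for the 38 genes and 0.09 for all genes, and 30 of the 38 values were above 0. Only Wnt4 also had a fold change above 2, which is the threshold of the study, and that threshold was passed by 0.866% of all genes in the higher and 1.07% in the lower direction, 1.94% in all. The groups did not overlap for 8 of the 38 genes, all with higher HG values. This lies near the share of all genes, of which 19.3% had every HG library above the CON libraries. A further 8.12% of all genes had every HG library below them. Without CON replicate 3, which held the most liver RNA, 16 genes were higher and 0 lower, since the call of Wnt9a was lost (adjusted p = 0.0607). In bulk tissue, a change in the share of a cell type and a change in the RNA per cell cannot be told apart.

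The scale of the libraries bore on these counts. Dividing by median-of-ratios factors moved the median of all genes to 0.01, and 9 of the 38 genes were then higher and 1 lower, beside 15.7% and 17.5% of all genes. After quantile normalization 12 were higher and 1 lower, beside 18.0% and 15.9% of all genes. With median-of-ratios factors the genes that no longer passed were Fzd1, Fzd3, Rspo3, Lrp6, Ctnnb1, Axin1 and Axin2. The calls of Wnt4, Wnt5a, Wnt11, Fzd2, Fzd6, Fzd8, Lef1, Tcf7l1 and Tcf7l2 held in all 20 alternative analyses.

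**Figure D1:**
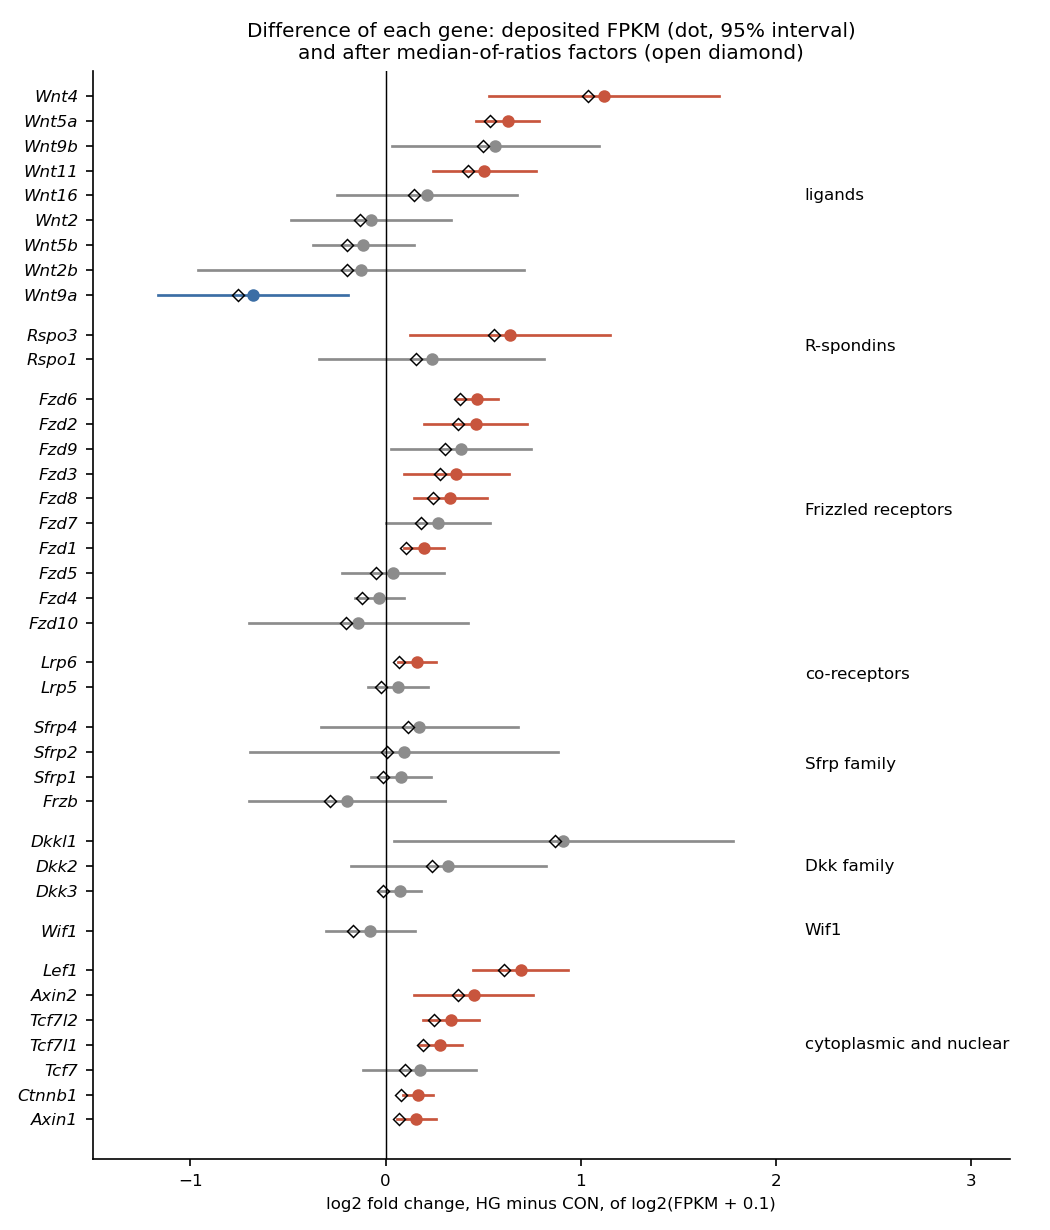
Log2 fold change of each of the 38 genes on the log2(FPKM + 0.1) scale, HG minus CON, grouped by role. Dots are limma estimates with 95% intervals, red where higher and blue where lower at an adjusted p under 0.05 and grey otherwise, and open diamonds are the estimates after median-of-ratios factors, each of which lies to the left of its own dot. Wnt4 has the highest value at 1.12 and Wnt9a the lowest at -0.68.

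Among the 9 ligands, 3 were higher in HG (33.3%), 1 was lower (11.1%) and 5 did not pass. These shares lie near those of all genes tested (28.4% higher and 11.8% lower). Their summed level averaged 12.7 ± 0.934 FPKM for CON and 17.7 ± 1.61 FPKM for HG (SD over 5 libraries, as in all such values), and the groups did not overlap, with 12.1 to 14.3 FPKM against 16.1 to 19.8 FPKM. Wnt5a alone held 54.3% of this sum.

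Wnt5a (NCBI Gene 64566) is a ligand best known for signalling without beta-catenin, through Ror receptors and the planar cell polarity branch. It stood at 6.29, 7.08, 6.08, 6.38 and 6.40 FPKM in CON replicates 1 to 5 and at 8.54, 10.8, 9.50, 10.2 and 11.2 FPKM in HG. Every HG library was above every CON library. The log2 fold change was 0.63 (SE 0.0742, adjusted p = 5.91e-05, limma).

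Wnt11 (140584), another ligand of the non-canonical branch with a role in outflow tract formation, had 1.38, 1.27, 1.21, 1.47 and 1.51 FPKM in CON and 2.22, 1.95, 2.47, 1.56 and 1.81 FPKM in HG. The groups did not overlap, although HG replicate 4 lay just above the highest control. Its log2 fold change was 0.51 (SE 0.122, adjusted p = 0.00595, limma).

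Wnt4 (84426), a ligand needed for kidney and gonad development, had the highest log2 fold change of the 38 genes on the log2(FPKM + 0.1) scale. It was at 1.09, 1.05, 0.676, 0.622 and 0.472 FPKM in CON and at 1.28, 2.34, 2.44, 0.979 and 2.18 FPKM in HG. All HG libraries but replicate 4 exceeded the highest control. The ratio of the means was 2.36 and the log2 fold change 1.12 (SE 0.271, adjusted p = 0.00619, limma), on 14 to 72 reads per library. With a pseudocount of 1 in place of 0.1, Wnt4 kept its call but not the fold change above 2. By limma-voom on recovered reads its log2 fold change was 1.19, and Dkkl1, with at most 7 reads per library and no call, had 1.70.

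Wnt9a (287357), which acts in joint formation and in shaping heart valves, was the single gene called lower. Its values were 0.693, 1.03, 0.915, 0.789 and 0.777 FPKM in CON and 0.376, 0.813, 0.276, 0.440 and 0.664 FPKM in HG. All HG libraries but replicate 2 lay below the lowest control. The estimated log2 difference was -0.68 (SE 0.224, adjusted p = 0.0293, limma), on 16 to 63 reads per library. Its call was lost when CON replicate 2, CON replicate 3, HG replicate 1, HG replicate 3 or HG replicate 4 was left out, with an adjusted p of 0.0664, 0.0607, 0.0671, 0.0661 and 0.0558.

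The remaining 5 ligands did not pass. Wnt9b, a ligand of the kidney duct that is also expressed in endocardium, came nearest with a log2 fold change of 0.56 (95% interval 0.03 to 1.09, adjusted p = 0.0860, limma). Wnt5b, a close relative of Wnt5a, averaged 2.12 ± 0.274 FPKM for CON and 1.96 ± 0.312 FPKM for HG, with a log2 fold change of -0.11 (95% interval -0.37 to 0.15). The estimates of Wnt2, Wnt2b and Wnt16 were -0.07, -0.13 and 0.21, and their intervals reached from -0.96 to 0.71 for Wnt2b, the widest of these ligands. At 2 to 35 reads per library, differences of these 3 genes were not well resolved.

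The promoters of Wnt4 and Wnt9a are printed because these ligands moved in opposite directions while their promoters were alike in composition. The sequences cover the 250 bases before each start in RefSeq (build GRCr8), on the plus strand, at chr5:154797200-154797449 and chr10:44593441-44593690, with each CG dinucleotide in capitals.
Wnt4: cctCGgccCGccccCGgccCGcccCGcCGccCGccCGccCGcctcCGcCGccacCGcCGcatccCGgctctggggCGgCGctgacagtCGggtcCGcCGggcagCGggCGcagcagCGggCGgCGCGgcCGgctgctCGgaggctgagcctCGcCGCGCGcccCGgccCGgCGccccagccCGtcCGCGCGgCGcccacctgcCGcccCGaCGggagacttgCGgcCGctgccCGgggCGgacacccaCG
Wnt9a: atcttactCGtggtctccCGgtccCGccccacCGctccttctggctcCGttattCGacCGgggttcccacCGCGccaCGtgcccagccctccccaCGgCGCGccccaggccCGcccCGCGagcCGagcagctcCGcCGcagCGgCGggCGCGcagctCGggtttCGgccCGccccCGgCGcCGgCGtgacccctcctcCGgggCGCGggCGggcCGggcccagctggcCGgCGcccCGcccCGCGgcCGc
They held 47 and 41 CG dinucleotides, more than 99.8% and 99.0% of all 27457 promoters in the table. The median was 20 in the 27 of the 38 genes with an entry and 6 over all promoters. Among genes called higher in HG the median was 17 (11 genes), and among those not called it was 21 (15 genes).

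**Figure D2:**
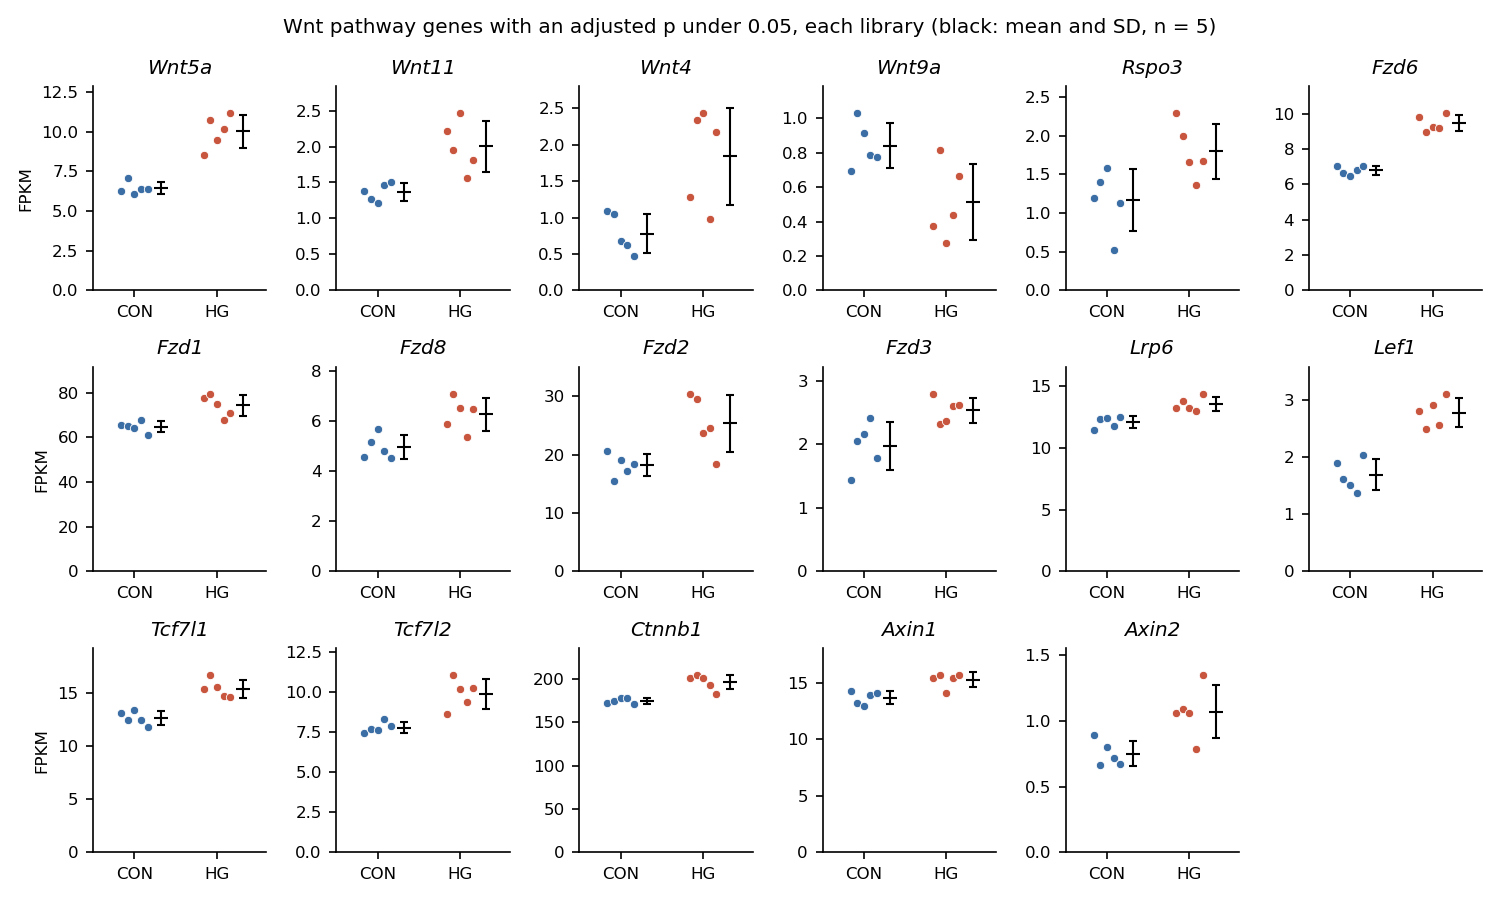
FPKM of the 17 genes with an adjusted p under 0.05 in each library, CON in blue and HG in red, with the mean and SD (n = 5) in black. The vertical axes start at 0 and differ between panels. Wnt9a is the one gene with lower HG values, and the Wnt5a points of HG lie between 8.54 and 11.2 FPKM, all above the CON points.

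R-spondins are secreted proteins that strengthen Wnt signals by keeping Frizzled receptors on the cell surface. Rspo3 (498997), which is needed for vessel and heart development, had 1.19, 1.40, 1.59, 0.527 and 1.13 FPKM in CON and 2.30, 2.00, 1.66, 1.36 and 1.68 FPKM in HG. HG replicate 4 fell within the control range, and CON replicate 4 was the lowest library. On the log2 scale the difference was 0.64 (SE 0.236, adjusted p = 0.0477, limma), and the call held in only 8 of the 20 alternatives. It was lost without CON replicate 1, 4 or 5 (adjusted p = 0.0674, 0.0602 and 0.0727) and without HG replicate 1, 2, 3 or 5 (adjusted p = 0.109, 0.0930, 0.0703 and 0.0692). Rspo1 did not pass, with a log2 fold change of 0.24 (95% interval -0.34 to 0.81).

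Frizzled genes encode the seven-pass membrane receptors of Wnt ligands. Of 10 measured, 5 were higher in HG, none was lower by limma or limma-voom, and 5 did not pass. At an unadjusted p under 0.05, 7 were higher and 0 lower. Over all genes tested, 28.4% were higher and 11.8% lower at an adjusted p under 0.05. With median-of-ratios factors 3 Frizzled genes were called higher, beside 15.7% of all genes. After quantile normalization 4 Frizzled genes were called higher, beside 18.0% of all genes. The summed level averaged 124.4 ± 3.77 FPKM for CON and 146.6 ± 11.5 FPKM for HG, with 119.7 to 128.6 FPKM against 134.8 to 158.9 FPKM and thus no overlap. Fzd1 made up 51.3% of the sum.

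Fzd6 (282581), a receptor tied to planar cell polarity, had the smallest adjusted p of the 38 genes. It measured 7.07, 6.67, 6.45, 6.82 and 7.02 FPKM in CON and 9.81, 8.99, 9.28, 9.18 and 10.1 FPKM in HG. The groups were far apart relative to their spread. Its log2 fold change was 0.47 (SE 0.0507, adjusted p = 3.03e-05, limma).

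Fzd2 (64512), a receptor for Wnt5a among other ligands, was at 20.5, 15.5, 19.1, 17.2 and 18.4 FPKM in CON and 30.4, 29.6, 23.7, 24.6 and 18.4 FPKM in HG. HG replicate 5 stood inside the control range and the other HG libraries above it. The log2 fold change was 0.46 (SE 0.122, adjusted p = 0.010, limma).

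Fzd1 (58868), the most abundant Frizzled receptor, ranged from 61.1 to 68.0 FPKM in CON and from 67.9 to 79.5 FPKM in HG, with values of 65.3, 65.2, 64.0, 68.0 and 61.1 FPKM and of 77.8, 79.5, 75.0, 67.9 and 71.1 FPKM. HG replicate 4 alone lay within the control range. The fitted log2 difference was 0.20 (SE 0.0471, adjusted p = 0.00572, limma), and it was 0.11 (adjusted p = 0.111) with median-of-ratios factors. After quantile normalization it was 0.18 (adjusted p = 0.00939, limma).

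Fzd8 (364754), which can pair with Lrp6 at the membrane, had 4.59, 5.19, 5.68, 4.80 and 4.53 FPKM in CON and 5.89, 7.10, 6.52, 5.36 and 6.50 FPKM in HG. HG replicate 4 was again the library inside the control range. HG exceeded CON by a log2 fold change of 0.33 (SE 0.0862, adjusted p = 0.00895, limma).

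Fzd3 (266715), a planar cell polarity receptor known from axon guidance, had 1.44, 2.05, 2.16, 2.42 and 1.79 FPKM in CON and 2.79, 2.31, 2.37, 2.59 and 2.61 FPKM in HG. CON replicate 4 overlapped the HG libraries. The log2 fold change was 0.36 (SE 0.123, adjusted p = 0.0327, limma), and the call held in 11 of the 20 alternatives. It was lost without CON replicate 1 or 5 (adjusted p = 0.0643 and 0.0691) and without HG replicate 1, 4 or 5 (adjusted p = 0.0741, 0.0588 and 0.0608).

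The Frizzled genes that did not pass fell into different ranges. Fzd9 and Fzd7 had log2 fold changes of 0.39 (95% interval 0.03 to 0.75, adjusted p = 0.0811) and 0.27 (adjusted p = 0.102), by limma. Fzd4, which also binds norrin in vessels, averaged 13.7 ± 0.740 FPKM for CON and 13.4 ± 0.941 FPKM for HG (log2 fold change -0.03, 95% interval -0.16 to 0.09). Fzd5 had an estimate of 0.04 (95% interval -0.22 to 0.30), and Fzd10, with at most 36 reads in a library, of -0.14 (95% interval -0.70 to 0.42).

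Lrp6 and Lrp5 are the co-receptors of the canonical branch. Lrp6 (312781) was at 11.5, 12.3, 12.5, 11.8 and 12.5 FPKM in CON and at 13.3, 13.8, 13.2, 13.0 and 14.4 FPKM in HG, so every HG library exceeded every control. The estimated log2 difference was small at 0.16 (SE 0.0452, adjusted p = 0.0141, limma), and it was 0.07 (adjusted p = 0.222) with median-of-ratios factors. After quantile normalization it was also 0.07 (adjusted p = 0.247, limma). Lrp5 (293649), the more abundant co-receptor, had 23.2, 23.5, 27.0, 24.8 and 24.5 FPKM in CON and 27.9, 29.1, 25.3, 24.8 and 22 FPKM in HG. The groups overlapped widely, and the log2 fold change was 0.07 (95% interval -0.09 to 0.22, adjusted p = 0.493, limma).

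**Figure D3:**
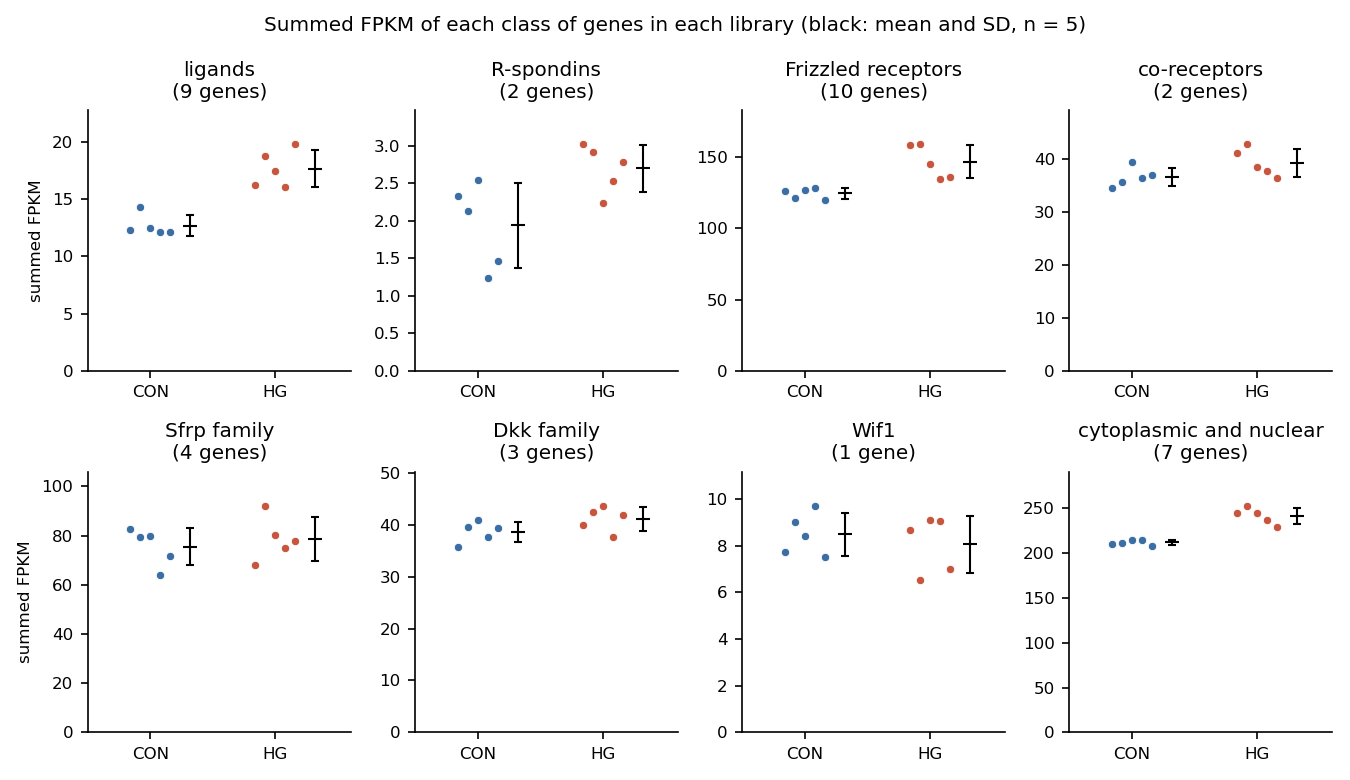
Summed FPKM of the genes of each role in each library, CON in blue and HG in red, with the mean and SD (n = 5) in black and axes that start at 0. The HG points lie above all CON points for the ligands, the Frizzled receptors and the cytoplasmic and nuclear genes, and the points of both groups overlap for the R-spondins, the co-receptors, the Sfrp family, the Dkk family and Wif1.

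No gene of the secreted antagonist families passed by limma or by limma-voom on recovered reads, whether of the Sfrp family (4 genes), the Dkk family (3 genes) or Wif1. At an unadjusted p under 0.05, 1 of these genes, Dkkl1, was higher. Its mean was 0.0986 FPKM for CON, under the 0.1 FPKM required for testing, and 0.228 FPKM for HG. It thus entered the test through its HG values, and this difference carries no weight. Sfrp proteins carry a Frizzled-like domain and bind Wnt ligands outside the cell. Sfrp1 (84402), the most abundant of them, had 59.9, 60.5, 63.7, 58.2 and 55.0 FPKM in CON and 52.3, 71.6, 63.3, 66.2 and 61.8 FPKM in HG. The HG libraries lay on both sides of the controls, with a log2 fold change of 0.08 (95% interval -0.08 to 0.23, adjusted p = 0.412, limma).

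Sfrp2 was the most variable of the abundant antagonists, at 3.78 to 16.8 FPKM in CON and 5.76 to 15.9 FPKM in HG. Replicate 4 was the lowest library in both groups. Its log2 fold change was 0.10 (95% interval -0.69 to 0.89), and it was -0.26 without CON replicate 4. Frzb, an antagonist first found in cartilage, averaged 4.2 ± 1.34 FPKM for CON and 3.51 ± 0.682 FPKM for HG, and CON replicate 4 was again lowest at 1.98 FPKM. Its log2 fold change was -0.20 (95% interval -0.70 to 0.31, adjusted p = 0.533, limma), and it was -0.44 (adjusted p = 0.0272) without CON replicate 4. Sfrp4 stayed near the level required for testing, with 0.0857 to 0.276 FPKM in CON and 0.141 to 0.245 FPKM in HG.

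Dkk proteins are secreted, and several of them block Lrp5 and Lrp6. Dkk3 (171548), a divergent member that does not act as a classic Lrp6 inhibitor, held 96.3% of the family sum, with 34.4, 38.0, 39.9, 36.8 and 37.8 FPKM in CON and 37.8, 41.1, 41.3, 36.0 and 40.6 FPKM in HG. The groups overlapped, and the log2 fold change was 0.07 (95% interval -0.03 to 0.18, adjusted p = 0.264, limma). Dkk2, with means of 1.14 ± 0.260 FPKM for CON and 1.5 ± 0.557 FPKM for HG, had an interval from -0.18 to 0.82. Dkkl1 had 0 to 7 reads per library and a log2 fold change of 0.91 (95% interval 0.04 to 1.78, adjusted p = 0.0883, limma). Wif1 (114557), which binds Wnt ligands directly, had 7.73, 9.01, 8.42, 9.71 and 7.53 FPKM in CON and 8.67, 6.53, 9.09, 9.06 and 6.98 FPKM in HG. HG replicates 2 and 5 were below the controls and the others among them, with a log2 fold change of -0.08 (95% interval -0.31 to 0.15, adjusted p = 0.586, limma).

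Of the 7 cytoplasmic and nuclear genes, 6 were higher in HG (85.7%, beside 28.4% of all genes tested) and Tcf7 did not pass. Their summed level was 211.7 ± 2.85 FPKM in CON and 241.5 ± 9.08 FPKM in HG, and the groups did not overlap. Beta-catenin itself made up 81.9% of this sum. With median-of-ratios factors, 3 of the 7 genes were still called, beside 15.7% of all genes called higher.

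Ctnnb1 (84353), which encodes beta-catenin, was at 172.1, 175.0, 177.7, 177.5 and 171.1 FPKM in CON and at 200.5, 204.9, 200.5, 193.3 and 183.2 FPKM in HG. Every HG library was above the highest control, and the CON libraries lay close together. On the log2 scale the difference was 0.17 (SE 0.0353, adjusted p = 0.00254, limma), and it was 0.08 (adjusted p = 0.153) with median-of-ratios factors. After quantile normalization it was 0.20 (adjusted p = 0.00261, limma).

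Lef1 (161452) encodes a DNA-binding partner of beta-catenin and is itself a known canonical target. It had 1.89, 1.62, 1.51, 1.37 and 2.03 FPKM in CON and 2.80, 2.48, 2.90, 2.56 and 3.10 FPKM in HG, with no overlap. The log2 fold change of 0.69 (SE 0.112, adjusted p = 0.00048, limma) was the highest of this class.

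Tcf7l2 (679869), a factor that activates targets with beta-catenin, stood at 7.43, 7.65, 7.61, 8.29 and 7.88 FPKM in CON and at 8.59, 11.1, 10.2, 9.34 and 10.2 FPKM in HG. Its groups did not overlap, and the log2 fold change was 0.34 (SE 0.0666, adjusted p = 0.0018, limma). Tcf7l1 (312451), known mainly as a repressor, had 13.1, 12.4, 13.4, 12.4 and 11.8 FPKM in CON and 15.4, 16.7, 15.5, 14.7 and 14.6 FPKM in HG. It was also without overlap, at a log2 fold change of 0.28 (SE 0.0509, adjusted p = 0.00101, limma). For Tcf7, with means of 0.542 ± 0.0747 FPKM for CON and 0.624 ± 0.0832 FPKM for HG, the log2 fold change was 0.17 (95% interval -0.12 to 0.47, adjusted p = 0.327, limma).

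Axin1 and Axin2 encode scaffolds of the complex that marks beta-catenin for destruction, and Axin2 is a widely used readout of canonical signalling. Axin2 (29134) was at 0.890, 0.666, 0.801, 0.716 and 0.674 FPKM in CON and at 1.06, 1.09, 1.06, 0.788 and 1.35 FPKM in HG. HG replicate 4 alone lay within the control range. The log2 fold change was 0.45 (SE 0.140, adjusted p = 0.0220, limma), and the call was lost with median-of-ratios factors (adjusted p = 0.0518) and without HG replicate 5 (adjusted p = 0.0521). Its library values are given beyond the naming rule because it is this readout. Axin1 (79257) had 14.2, 13.2, 12.9, 13.9 and 14.1 FPKM in CON and 15.4, 15.7, 14.1, 15.4 and 15.6 FPKM in HG, where replicate 3 alone lay within the control range. It had a log2 fold change of 0.16 (SE 0.0458, adjusted p = 0.0157, limma).

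The Axin2 promoter is shown because this gene is the usual readout of beta-catenin with Tcf and Lef factors. It is the 250 bases before the RefSeq start (build GRCr8, plus strand) at chr10:94398535-94398784, with the Tcf and Lef core CTTTGAT in capitals.
Axin2: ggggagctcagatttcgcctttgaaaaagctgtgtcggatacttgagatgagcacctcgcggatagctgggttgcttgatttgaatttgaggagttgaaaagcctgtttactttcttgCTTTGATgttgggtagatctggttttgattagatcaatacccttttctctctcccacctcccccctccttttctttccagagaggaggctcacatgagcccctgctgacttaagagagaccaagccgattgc
The core, sought as CTTTGAT or ATCAAAG, began 132 bases before the start. Searched from 250 bases before to 50 bases after the start, it was found in 3 of 27 Wnt gene promoters (11.1%), those of Axin2, Dkkl1 and Tcf7, and in 3.62% of all promoters in the table. A match describes the letters of the sequence and not a bound site. Dkk2, Dkk3, Fzd2, Fzd3, Fzd6, Sfrp1, Sfrp4, Lrp5, Lrp6, Axin1 and Wnt5b had no entry.

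Of the 13 genes below 0.1 FPKM, Rspo2 came closest with a mean of 0.0623 FPKM, followed by Wnt10b (0.0401 FPKM) and Wnt7a (0.0303 FPKM). Just inside the level were Dkkl1 (0.163 FPKM), Sfrp4 (0.183 FPKM) and Wnt2 (0.186 FPKM). Wnt3, Wnt3a, Wnt6, Wnt7b, Wnt8b, Wnt10a, Dkk1, Dkk4, Sfrp5 and Rspo4 had from 1 to 11 reads in all 10 libraries together. Ligands of the canonical branch such as Wnt3a, and the inhibitor Dkk1, were thus barely detectable at this depth.

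Other genes of the pathway were examined in 6 lists by role, some sharing a gene, and 90 genes in all could be tested. They held 37 genes (41.1%) higher and 4 (4.44%) lower in HG, and their median log2 difference was 0.16, while no gene passed the fold change of the study. Beside them stand 28.4% higher and 11.8% lower over all genes tested. With median-of-ratios factors the counts were 20 higher and 10 lower, beside 15.7% and 17.5% of all genes. After quantile normalization they were 24 higher and 9 lower, beside 18.0% and 15.9%. The list of the beta-catenin destruction complex and Dishevelled had the highest share, with 11 of 19 genes higher and none lower by limma on the deposited scale. Apc2 was lower at an unadjusted p under 0.05 and was the 1 gene of that list called lower by limma-voom. With median-of-ratios factors, Dvl1, Apc2 and Ccdc88c were called lower (adjusted p = 0.0380, 0.0418 and 0.0334, limma). Apc, Csnk1a1, Csnk1d, Nkd1, Tnks and Tnks2 lost their higher calls there. After quantile normalization, Apc2 and Ccdc88c were called lower (adjusted p = 0.0426 and 0.0288, limma), and Apc, Nkd1 and Tnks lost their higher calls.

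In the same list, Dact1, a Dishevelled-binding protein, averaged 9.88 ± 0.681 FPKM for CON and 14.1 ± 0.423 FPKM for HG (log2 fold change 0.51, SE 0.0525, adjusted p = 2.2e-05, limma). For its relative Dact3 the estimate was 0.49 (adjusted p = 2.17e-05). Among genes of Wnt secretion and extracellular regulation, 5 of 12 were higher (41.7%, beside 28.4% of all genes tested). They included Igfbp4, a secreted binding protein of insulin-like growth factors that also inhibits Wnt signalling (0.43, adjusted p = 6.45e-05), and the glypican Gpc6 (0.23, adjusted p = 0.00469). Gpc6 lost its call with median-of-ratios factors (0.14, adjusted p = 0.0522) and after quantile normalization (0.13, adjusted p = 0.0557). Of the 5 genes, only Igfbp4 kept its call with median-of-ratios factors, where 15.7% of all genes were called higher. Only Igfbp4 and Gpc3 kept theirs after quantile normalization, beside 18.0% of all genes. Wls, which carries Wnt ligands to the cell surface, had 0.12 (adjusted p = 0.0289), but 0.027 (adjusted p = 0.641) with median-of-ratios factors and 0.090 (adjusted p = 0.0761) after quantile normalization. It was named after its values were seen.

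Membrane partners of the receptors counted 6 higher and 1 lower of 12. Ptk7, a planar cell polarity co-receptor, averaged 29.2 ± 1.23 FPKM for CON and 42.8 ± 3.42 FPKM for HG (log2 fold change 0.54, SE 0.0543, adjusted p = 1.75e-05, limma), and Reck, a partner of Wnt7 signalling, had 0.48 (adjusted p = 5.91e-05). Ryk, an atypical Wnt receptor, was the gene called lower on the deposited scale (-0.13, adjusted p = 0.0481, limma). Lgr4 lost its higher call with median-of-ratios factors (adjusted p = 0.267, limma) and after quantile normalization (adjusted p = 0.198, limma). Lrp4 was called lower under these scalings (adjusted p = 0.0475 and 0.0449, limma). Ror2, the receptor tyrosine kinase of Wnt5a, had 18.1 ± 1.63 FPKM in CON and 23.9 ± 2.34 FPKM in HG (0.40, adjusted p = 0.0013) and was named after its values were seen.

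The planar cell polarity and calcium list had 6 of 22 genes higher (27.3%) and 2 lower (9.09%), shares near those of all genes tested (28.4% and 11.8%). Its core membrane proteins Vangl2 (log2 fold change 0.55, adjusted p = 0.000113, limma) and Vangl1 (0.27, adjusted p = 0.00198) were higher, and Celsr1 (-0.22, adjusted p = 0.0169) and the phospholipase Plcb4 (-0.31, adjusted p = 0.00633) were lower. Nuclear partners of beta-catenin had 4 of 16 higher (25.0%) and 1 lower (6.25%), which is likewise no more than in all genes. In that list Bcl9 (0.40, adjusted p = 0.000463) and Pygo2 (0.22, adjusted p = 0.00629), both co-activators, were higher and the co-repressor relative Tle5 (-0.16, adjusted p = 0.0167) was lower. Pygo2 lost its call with median-of-ratios factors (0.13, adjusted p = 0.0823) and after quantile normalization (0.14, adjusted p = 0.0599). Among widely used beta-catenin targets, 6 of 13 were higher (46.2%) and none was lower by limma on the deposited scale. At an unadjusted p under 0.05 and by limma-voom, 0 were lower. The ephrin receptors Ephb2 (0.63, adjusted p = 0.000251) and Ephb3 (0.43, adjusted p = 0.000366) led the list. Ccn4 was called lower (-0.27) with median-of-ratios factors (adjusted p = 0.0190, limma) and after quantile normalization (adjusted p = 0.0162, limma). Nkd1 and Cd44 lost their higher calls under both scalings.

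**Figure D4:**
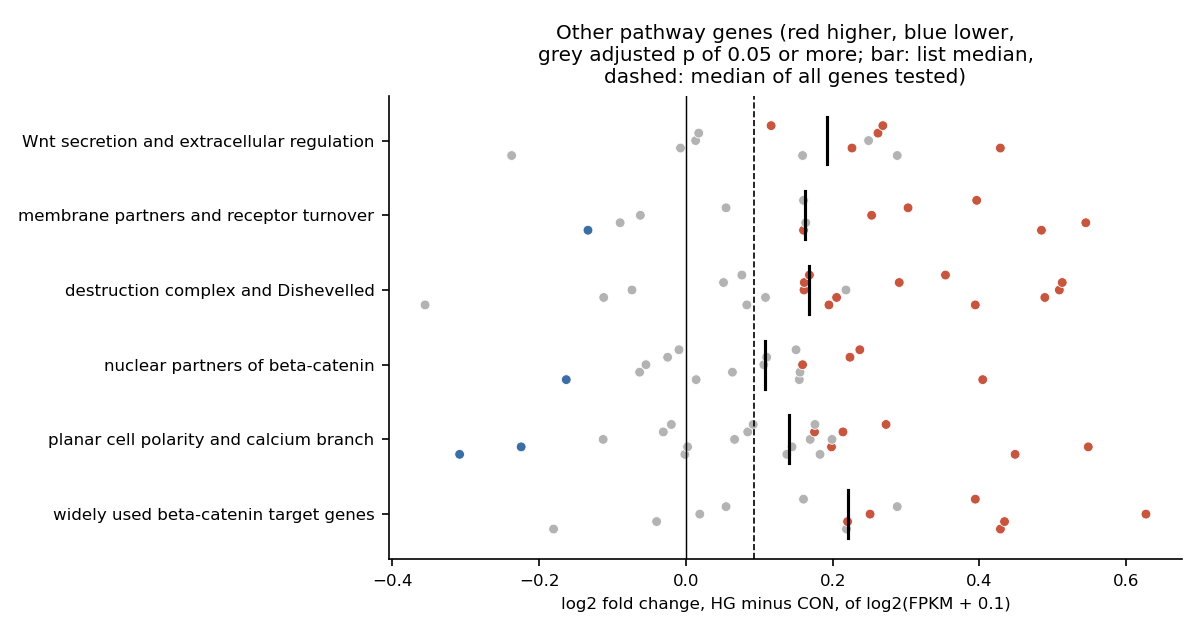
Log2 fold change (HG minus CON, log2(FPKM + 0.1)) of each tested gene in the 6 lists of other pathway genes, red where higher, blue where lower and grey where the adjusted p was 0.05 or more. Black bars are list medians and the dashed line is the median of all genes tested at 0.09, which lies to the left of every bar.

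The KEGG annotation that the authors deposited with the table gave a wider list. Of its Wnt pathway genes other than the 38 genes, 105 were tested, with 36 higher (34.3%) and 6 lower (5.71%) in HG. Over all genes tested the shares were 28.4% and 11.8%. Ctnnd2, a delta-catenin of neurons, was the only one past the fold change of the study. Its means were 0.107 ± 0.0190 FPKM for CON, near the level required for testing, and 0.329 ± 0.0712 FPKM for HG. The log2 fold change was 1.04 (SE 0.177, adjusted p = 0.000702, limma). With median-of-ratios factors it was 0.98 and after quantile normalization 0.94, so the gene no longer passed that fold change. Of the 38 genes described here, 35 carried this annotation.

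Markers of cell types that the heart tissue could hold are given beside these results, and 28.4% of all genes were higher and 11.8% lower, so that a count of 3 of 10 genes higher lies near the share of all genes. Epicardial and mesothelial markers summed to 63.4 to 73.8 FPKM in CON and 78.2 to 86.9 FPKM in HG, with 3 of 10 genes higher (Tbx18, Tcf21 and Aldh1a2) and 1 lower (Upk1b). Tcf21, also on the fibroblast list, averaged 32.5 FPKM for CON and 38.5 FPKM for HG and so made up much of the sum. The mesothelial genes Upk1b, Msln, Upk3b and Muc16 had log2 fold changes of -0.71, -0.44, -0.39 and -0.22, of which only Upk1b passed, so the sum does not stand for the whole list. Valve mesenchyme markers summed to 64.4 to 91.9 FPKM in CON and 94.8 to 137.8 FPKM in HG, with 2 of 6 tested genes higher, Hapln1 (log2 fold change 0.99) and Vcan (0.89). Vcan averaged 29.3 FPKM for CON and 54.4 FPKM for HG and carried most of the difference of the sum. Sox9 (0.019), Scx (0.20), Penk (0.10) and Cthrc1 (-0.24) did not pass. Fibroblast markers had 3 of 10 higher and 5 lower, and endothelial markers 4 of 10 higher. Smooth muscle and pericyte markers had 3 of 10 higher and 3 lower, macrophage markers 3 of 10 higher, neural crest, neuron and glia markers 1 of 5 tested higher and 2 lower, and red cell markers 1 of 10 higher and 6 lower. Of the liver markers, 5 of 8 were lower, and the 1 lung epithelium marker tested did not pass. Lef1 and Tcf7 are also expressed in T cells, whose markers summed to 2.22 to 3.22 FPKM in CON and 2.5 to 2.96 FPKM in HG, with 1 of the 3 tested genes higher and Cd3d, Cd3e and Cd3g at or near 0. The part of these cell types in the differences of the Wnt genes was not tested.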

How the data were processed

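The 18025 FPKM values per library were deposited by the authors for 5 CON and 5 HG libraries from stranded mRNA preparations. The submitters' processing notes name fastp, HISAT2, HTSeq, R 3.2.0 and the build mRatBN7.2, without roles. The KEGG and GO annotation deposited with them was used only for the pathway list. Groups followed the sample titles.

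The 14542 genes averaging 0.1 FPKM or more were transformed to log2(FPKM + 0.1), and limma 3.58.1 (trended prior variance, R 4.3.3) was fitted across them, with Benjamini-Hochberg adjustment. The test named by the study models read counts and was not applied to FPKM. Fold changes on this scale understate those of low genes. Whole reads were recovered from the FPKM steps for 100% of genes (within 0.02 reads) and tested by limma-voom as an alternative. Other alternatives changed the pseudocount, filter, scaling, trend, replicate block, a covariate of Y chromosome genes, or left out each library. The script was tested on simulated data. Promoters came from RefSeq tables (GRCr8), and no values were placed on a genome.

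The genes, the 6 pathway lists and the 12 marker lists were chosen with earlier results of these data known. All Wnt genes may be named. Library values are given for genes past the study threshold, for up to 5 called genes of each role by adjusted p, and for the most abundant gene of each role. From each other list, the 2 genes with the smallest adjusted p in each direction are named. Some genes whose call changed with the scaling are named beyond this rule.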

Additional observations from a re-analysis of the deposited data

Results flagged for a closer look

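In 76 groups of 5 libraries (38 genes in CON and in HG), 4 had a library apart from the others by Dixon's test, which measures the gap to the nearest library as a share of the group's range against a critical value of 0.71. Chance alone is expected to set about as many apart at the 95% level. Axin1 in HG replicate 3 was at 14.1 FPKM, below 15.4 to 15.7 FPKM in the others (share 0.822). Fzd7 in HG replicate 2 was at 3.11 FPKM, above 2.04 to 2.19 FPKM (share 0.838). Sfrp2 in CON replicate 4 was at 3.78 FPKM, below 11.7 to 16.8 FPKM (share 0.755). Wnt2b in HG replicate 3 was at 0.0650 FPKM, below 0.399 to 0.676 FPKM (share 0.714).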

How the results depend on the processing

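The count of Wnt genes called higher was 16 and ranged from 13 to 17 when each library was left out in turn. It was 9 with median-of-ratios factors. The count called lower, 1, was 0 with a filter at a mean of 1 FPKM, where Wnt9a was not tested, and ranged from 0 to 2 with libraries left out. The count past the study threshold, 1, was 0 with a pseudocount of 1 and stayed at 1 with each library left out. For the other pathway genes, 37 higher and 4 lower became 20 and 10 with median-of-ratios factors and 24 and 9 after quantile normalization, and ranged from 33 to 39 and from 3 to 4 with libraries left out. On recovered reads, limma-voom left the direction and the call of all 38 genes as they were. With Y chromosome genes as a covariate, 17 were higher and 1 lower, Dkkl1 being added (adjusted p = 0.0346). Dkkl1 reached the level required for testing only through its HG values.

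Changes of sign concerned genes that were not called. With median-of-ratios factors the log2 fold changes of Dkk3, Fzd5, Lrp5 and Sfrp1 were -0.015, -0.050, -0.024 and -0.011, and that of Fzd5 was -0.051 after quantile normalization. With each library left out in turn, Fzd4 ranged from -0.066 to 0.0019, Fzd5 from -0.038 to 0.11, Sfrp2 from -0.26 (without CON replicate 4) to 0.33, and Wnt2b from -0.30 to 0.26 (without HG replicate 3). The causes were not tested.

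With the replicate number as a block, 16 genes were higher and 1 lower, Fzd3 lost its call (adjusted p = 0.0648) and Wnt9b gained one (adjusted p = 0.0473). No pairing by number was seen. Deviations from the group means correlated at -0.126 to 0.108 over the 5 pairs, and 0 of 5 pairs were most alike under their own number. A weak pairing could escape this check, and the titles do not say whether libraries are paired. Genes with few reads, such as Dkkl1 (0 to 7 per library), Wnt16 (5 to 13) and Sfrp4 (5 to 16), limit what could be detected.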
